A study of Mus musculus with 8 samples.

Results

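The genes encoding the EMT-inducing transcription factors *Snai1*, *Snai2*, *Snai3*, *Zeb1*, *Zeb2*, *Twist1*, *Twist2* and *Hmga2* were read by symbol from a table of RNA-seq counts of NMuMG cells, and all 8 were among its 37310 genes. NMuMG is an epithelial cell line from normal mouse mammary gland. The 8 libraries came from control cells and from cells labelled knockout (KO) for the long non-coding RNA *Lnc-Nr6a1*, each untreated or treated with 10 ng/ml TGF-β1 for 2 h, with 2 biological replicates per condition. The KO lines had been made with CRISPR-Cas9, by deleting a stretch of its promoter and exon 1, and grown from single sorted cells, and the number of clones behind the libraries is not given in the sources used here. *Lnc-Nr6a1* is listed as *Gm13507*, with 3 and 14 counts in untreated control cells, 11 and 7 in the untreated KO-labelled libraries, 25 and 35 in treated control cells and 0 in both treated KO-labelled libraries. It did not separate the untreated libraries, so genotypes are given below as labelled.

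Epithelial-to-mesenchymal transition (EMT) is the loss of cell-cell junctions and apical-basal polarity by epithelial cells and their gain of migratory properties. Proteins of the Snail family (*Snai1*, *Snai2*, *Snai3*) and of the Zeb family (*Zeb1*, *Zeb2*) are zinc finger repressors that bind E-box sequences in promoters of junction genes such as *Cdh1*, which encodes E-cadherin. *Twist1* and *Twist2* encode basic helix-loop-helix factors that pair with E proteins. *Hmga2* encodes an architectural chromatin protein that binds AT-rich DNA and takes part in the induction of EMT by TGF-β. NMuMG cells are a standard model of that induction.

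Each library held between 4297832 and 13574397 counts in all, the smallest total being of an untreated and the largest of a treated KO-labelled library, and 3 counts, taken as the floor of detection, corresponded to 0.238 to 0.661 CPM (read counts scaled by library total and TMM factor). Floors cover counting error only. Of the epithelial cell markers *Cdh1*, *Krt8*, *Krt18*, *Krt19*, *Tjp1*, *Epcam* and *Cldn7*, 5 of 7 were above the floor in every library, while *Epcam* had at most 2 counts and *Cldn7* had 0. The summed level of these epithelial markers was 6335 to 7329 CPM in untreated and 8288 to 11259 CPM in treated libraries. Markers of fibroblasts summed to 0.665 to 4.85 CPM, those of endothelial cells to at most 0.847 CPM and those of leukocytes to 2.07 to 5.32 CPM. In the treated control group the replicates were the farthest apart, with a median difference between them of 0.33 on the log2 scale over all genes tested, against 0.20 to 0.22 in the other groups.

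Promoter sequences are shown for *Snai1*, *Zeb2* and *Hmga2*, the members called higher after TGF-β in both genotypes. RefSeq promoters (GRCm38.p6) were at hand for 5 of the 8 members, and for *Zeb2* the start farthest upstream of its 4 starts was taken. The windows are the 250 bases before each start, chr2:167537945-167538194 (+ strand) for *Snai1*, chr2:45117443-45117692 (- strand) for *Zeb2* and chr10:120476470-120476719 (- strand) for *Hmga2*, written 5′ to 3′ on the strand of the gene, and none of them overlapped an exon of GENCODE vM1. Capitals mark the E-box CACCTG (or CAGGTG on the other strand).
Snai1: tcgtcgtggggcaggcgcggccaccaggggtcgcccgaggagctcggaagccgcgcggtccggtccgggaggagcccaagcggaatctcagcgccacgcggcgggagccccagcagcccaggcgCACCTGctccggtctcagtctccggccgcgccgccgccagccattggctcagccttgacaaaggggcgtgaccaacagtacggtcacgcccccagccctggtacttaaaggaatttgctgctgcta
Zeb2: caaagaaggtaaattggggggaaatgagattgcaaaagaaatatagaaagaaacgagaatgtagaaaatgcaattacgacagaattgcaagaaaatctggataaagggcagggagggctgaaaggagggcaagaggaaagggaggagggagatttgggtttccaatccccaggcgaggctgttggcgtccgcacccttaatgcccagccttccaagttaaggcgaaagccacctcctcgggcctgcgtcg
Hmga2: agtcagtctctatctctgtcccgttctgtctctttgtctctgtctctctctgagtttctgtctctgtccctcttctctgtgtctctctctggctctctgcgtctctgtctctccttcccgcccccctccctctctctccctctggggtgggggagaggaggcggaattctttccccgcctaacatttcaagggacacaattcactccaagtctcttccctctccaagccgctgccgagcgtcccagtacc
The *Snai1* window held 1 match to CACCTG, its first base at position -126 from the start. No window of the other 4 members did, and 17.2% of the 32851 windows of this length held one on either strand. The SMAD box CAGAC, searched on both strands, matched in none of the 3 printed windows and in 42.2% of all windows. The AP-1 motif TGANTCA matched 2 times before the *Zeb2* start farthest downstream, as TGAGTCA and TGACTCA, in a window that overlaps annotated exons and is not printed, and 6.75% of all windows held it. These matches describe letters in the windows and not bound sites.

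The factors differed widely in level before any treatment. Levels per kb use the merged exons of all annotated transcripts, 15368 bp for *Zeb2* with 11 transcripts and 1621 bp for *Snai1* with 1. Per kb of exons, *Hmga2* was the highest of the 8 in untreated control cells at 21.9 ± 0.728 CPM per kb (SD, n = 2), followed by *Twist2* at 7.75 ± 1.48, *Zeb1* at 3.83 ± 0.147, *Snai3* at 2.44 ± 1.06 and *Zeb2* at 1.76 ± 0.0243 CPM per kb. *Snai2* at 0.714 ± 0.585, *Snai1* at 0.449 ± 0.00377 and *Twist1* at 0.112 ± 0.0521 CPM per kb were the lowest. In this order the libraries of neighbours overlapped for *Snai3* and *Zeb2* and for *Snai2* and *Snai1*, and for no other pair. In the untreated KO-labelled libraries the order was *Hmga2*, *Twist2*, *Snai3*, *Zeb1*, *Zeb2*, *Snai1*, *Snai2* and *Twist1*, with no overlap between neighbours.

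After TGF-β, *Snai1* moved from position 7 to position 2 in control cells, at 8.56 ± 1.22 CPM per kb (SD, n = 2), and from position 6 to position 2 in the KO-labelled libraries, at 14.8 ± 1.84 CPM per kb. *Hmga2* stayed first in both genotypes. Only *Twist2* and *Zeb2*, and *Snai3* and *Snai2*, overlapped as neighbours in treated control cells, and only *Twist2* and *Zeb1* in treated KO-labelled libraries. Summed over the 8 genes, the level was 37.3 to 44.2 CPM per kb in the untreated and 54.6 to 98.3 CPM per kb in the treated libraries, without overlap. *Snai1* took 1.10 to 2.15% of this sum in untreated and 11.2 to 22.3% in treated libraries, while *Hmga2* took 46.5 to 66.9% over all libraries.

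**Figure D1:**
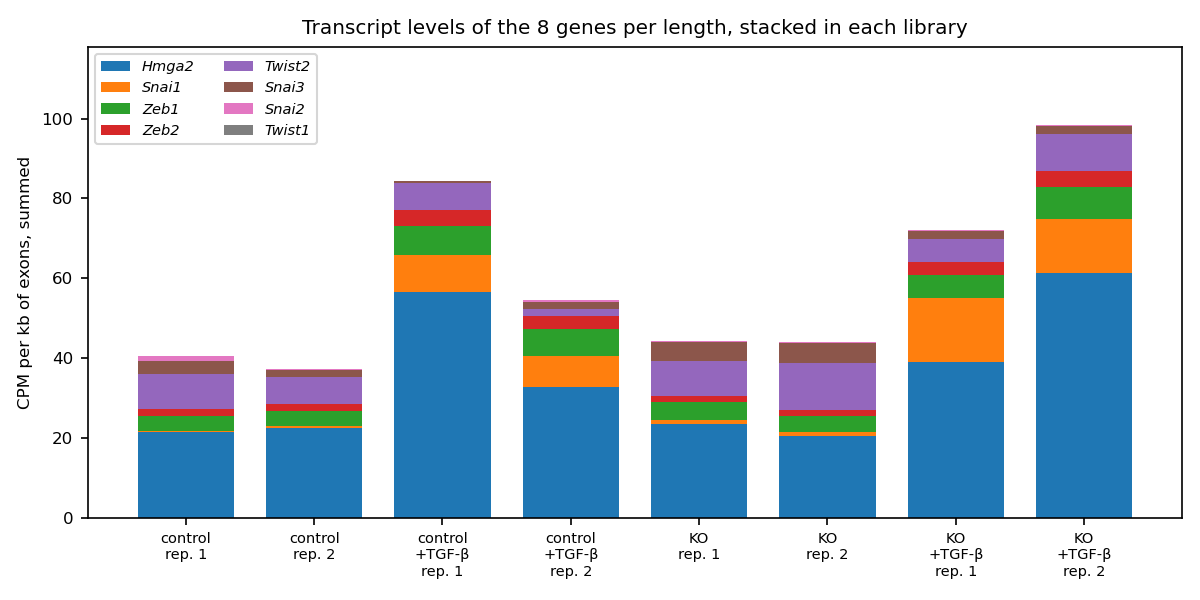
Stacked bars show the level of each of the 8 genes in CPM per kb of exons for each of the 8 libraries (rep., replicate). *Hmga2* makes up 46.5 to 66.9% of each bar, and the *Snai1* segment is 1.10 to 2.15% of the untreated and 11.2 to 22.3% of the treated bars.

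*Snai1*, *Zeb1*, *Zeb2* and *Hmga2* were called higher after 2 h of TGF-β in control cells, and *Snai1*, *Zeb2* and *Hmga2* in the KO-labelled libraries. There *Zeb1* changed in the same direction, by 0.70 on the log2 scale, and narrowly missed the threshold (edgeR adjusted p = 0.0616). A gene was called at an adjusted p below 0.05 (edgeR's quasi-likelihood test, Benjamini-Hochberg over 13028 genes) and a log2 fold change above 0.5 in size. Of the 8 members 6 had enough counts to be tested, and 4 of these were called in control cells, where 9.16% of all tested genes passed (4.69% higher, 4.47% lower). Of the 6, 3 were called in the KO-labelled libraries, against 6.82% of all tested genes (4.25% higher, 2.57% lower). *Snai1* passed the filter on low counts through its treated libraries, and without the filter it was called as well. From bulk RNA, a change in the number of expressing cells and one in the RNA per cell cannot be told apart.

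**Figure D2:**
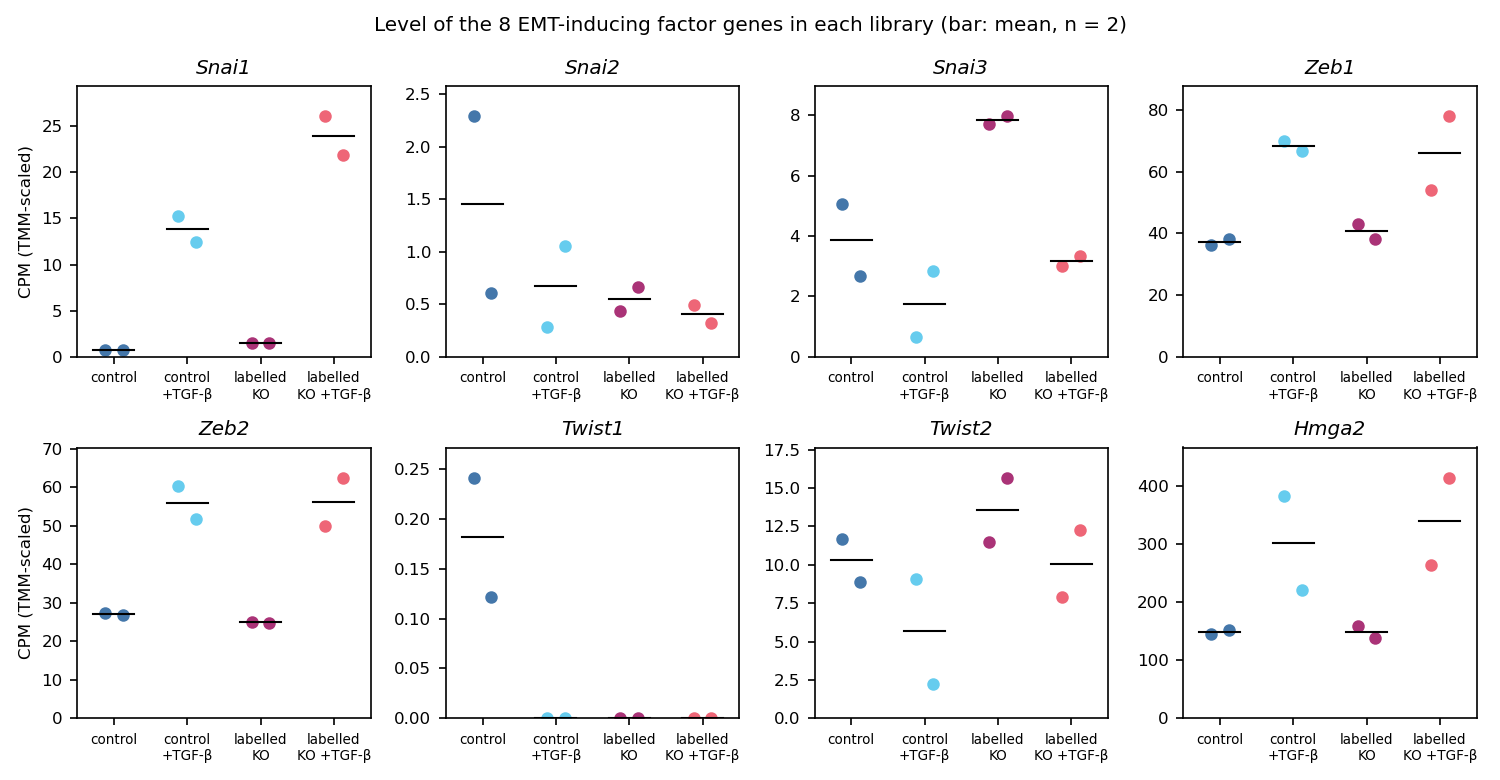
Each panel plots the level of 1 gene in CPM (y axis, from 0, with its own scale) by condition (x axis), with points for the 2 libraries and a bar for their mean. The treated points of *Snai1*, *Zeb1*, *Zeb2* and *Hmga2* lie above the untreated points of the same genotype, and all *Twist1* points are at or below 2 counts.

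Of the Snail family, *Snai1*, the member most closely tied to early EMT, rose the most of the 6 members tested. In control cells it had 6 and 6 counts untreated and 163 and 118 treated, or 0.728 ± 0.00611 and 13.9 ± 1.97 CPM (SD, n = 2). The untreated KO-labelled libraries had 7 and 11 counts and the treated ones 320 and 275, or 1.50 ± 0.0574 and 24.0 ± 2.99 CPM. Treated and untreated libraries did not overlap in either genotype, as they did not, with the treated ones higher, for 27.4% of all tested genes in control cells and 28.4% in the KO-labelled libraries. The log2 fold change was 4.23 (SE 0.32, edgeR adjusted p = 4.16e-04), or 18.8-fold, in control cells and 3.99 (SE 0.30, edgeR adjusted p = 3.13e-04), or 15.9-fold, in the KO-labelled libraries. Among 13028 genes ordered by the size of their rise, *Snai1* held position 20 in control cells and position 42 in the KO-labelled libraries. It was called in both responses under every alternative and with any library left out, at log2 fold changes of 3.95 to 4.34 and 3.82 to 4.12.

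*Snai2*, which encodes Slug, was near the floor. Its counts were 19 and 5 in untreated and 3 and 10 in treated control cells, and 2 and 5 in untreated and 6 and 4 in treated KO-labelled libraries. It exceeded 3 counts in 6 of 8 libraries, did not pass the filter on low counts, and its treated and untreated libraries overlapped in both genotypes. Without the filter its log2 fold change was -1.13 (edgeR adjusted p = 0.549) in control cells and -0.43 (edgeR adjusted p = 0.925) in the KO-labelled libraries, and no change of *Snai2* was detected.

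*Snai3*, a less studied member of the family, had 42 and 22 counts in untreated and 7 and 27 in treated control cells, or 3.88 ± 1.68 and 1.76 ± 1.56 CPM. The KO-labelled libraries had 35 and 60 counts untreated and 37 and 42 treated, or 7.85 ± 0.183 and 3.18 ± 0.228 CPM. These libraries overlapped in control cells and were lower after treatment, without overlap, in those labelled KO, as were 28.3% of all tested genes. The log2 fold change was -1.16 (SE 0.60, edgeR adjusted p = 0.245) in control cells and -1.30 (SE 0.55, edgeR adjusted p = 0.198) in the KO-labelled libraries, and neither passed. Without the filter on low counts *Snai3* was called lower in the KO-labelled libraries, at -1.24 (SE 0.43, edgeR adjusted p = 0.0421). That fit gave lower p-values at a like change and SE. For *Zeb1* in the KO-labelled libraries its edgeR unadjusted p was 2.37e-04 at 0.76 (SE 0.21). The filtered fit gave an edgeR unadjusted p of 0.00497 at 0.70 (SE 0.19). Calls of the unfiltered fit are thus not on a like scale with the others. The treated control libraries differed from each other, with 0.656 CPM in replicate 1 and 2.86 CPM in replicate 2, and the change in control cells was -0.44 (edgeR adjusted p = 0.569) without replicate 1 and -2.56 (edgeR adjusted p = 0.0374) without replicate 2. A fit with a library left out leaves 1 library in that group, which is assumed to vary like the other groups.

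Of the Zeb genes, which encode repressors with a cluster of zinc fingers at either end, both were called higher in control cells and only *Zeb2* in the KO-labelled libraries. *Zeb1* had 300 and 313 counts in untreated and 747 and 630 in treated control cells, or 37.2 ± 1.43 and 68.3 ± 2.35 CPM (SD, n = 2). KO-labelled libraries gave 195 and 288 counts untreated and 661 and 981 treated, or 40.6 ± 3.33 and 65.9 ± 17.0 CPM. All treated libraries were above all untreated ones, which held within the genotype for 27.4 and 28.4% of all tested genes. The log2 fold change was 0.88 (SE 0.19, edgeR adjusted p = 0.0250) in control cells, where it was called, and 0.70 (SE 0.19, edgeR adjusted p = 0.0616) in the KO-labelled libraries, where it was not. The call in control cells was lost without either untreated control library (edgeR adjusted p = 0.182 without replicate 1 and 0.117 without replicate 2) and without either untreated KO-labelled library (0.0527 for each). In the KO-labelled libraries, *Zeb1* was called without treated KO replicate 1 at 0.95 (edgeR adjusted p = 0.0192), without either treated control library (0.0457 without replicate 1 and 0.0449 without replicate 2), with DESeq2 (DESeq2 adjusted p = 0.0299), in thinned counts (edgeR adjusted p = 0.0467) and without the filter on low counts, at 0.76 (edgeR adjusted p = 0.00449), and the change was 0.42 without treated KO replicate 2.

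*Zeb2* had 227 and 220 counts in untreated and 643 and 489 in treated control cells, or 27.1 ± 0.373 and 56.0 ± 6.01 CPM. Among KO-labelled libraries it had 114 and 186 counts untreated and 612 and 787 treated, or 24.9 ± 0.291 and 56.2 ± 8.95 CPM, again without overlap (27.4 and 28.4% of all tested genes). The log2 fold change was 1.05 (SE 0.17, edgeR adjusted p = 0.00778) in control cells and 1.17 (SE 0.18, edgeR adjusted p = 0.00540) in the KO-labelled libraries. The calls were lost without either untreated library of the same genotype, at adjusted p = 0.0891 and 0.0695 without control replicates 1 and 2 and 0.0628 and 0.0777 without KO replicates 1 and 2 (edgeR). The antisense non-coding gene *Gm13476*, which shares 458 bp of exons with *Zeb2*, had at most 1 count in any library.

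Of the Twist genes, *Twist1* was below detection: untreated control replicates gave 2 and 1 counts and the other 6 libraries 0, and it exceeded 3 counts in 0 of 8 libraries. A count of 0 allows a level of up to 0.238 to 0.661 CPM in these libraries. *Twist2* was detected in all of them, with 97 and 73 counts in untreated and 97 and 21 in treated control cells, or 10.3 ± 1.97 and 5.66 ± 4.86 CPM. The KO-labelled libraries had 52 and 118 counts untreated and 97 and 154 treated, or 13.6 ± 2.98 and 10.1 ± 3.06 CPM. Treated and untreated libraries overlapped in both genotypes, and the log2 fold changes of -0.85 (SE 0.53, edgeR adjusted p = 0.331) and -0.44 (SE 0.51, edgeR adjusted p = 0.662) did not pass. Without treated control replicate 1, the library with 97 counts, the change in control cells was -2.21 (edgeR adjusted p = 0.0172), and without replicate 2 it was -0.20 (edgeR adjusted p = 0.760).

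*Hmga2* had 1199 and 1242 counts in untreated and 4080 and 2091 in treated control cells, or 148 ± 4.93 and 302 ± 114 CPM (SD, n = 2). KO-labelled libraries gave 723 and 1046 counts untreated and 3246 and 5218 treated, or 149 ± 14.4 and 340 ± 106 CPM. Untreated levels were close together, treated levels spread widely, and the treated and untreated libraries did not overlap (27.4 and 28.4% of all tested genes). The log2 fold change was 1.03 (SE 0.27, edgeR adjusted p = 0.0459) in control cells and 1.19 (SE 0.27, edgeR adjusted p = 0.0328) in the KO-labelled libraries.

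The call of *Hmga2* in control cells depended on single libraries. It fell to 0.57 (edgeR adjusted p = 0.141) without treated control replicate 1, and the call was lost without control replicate 1 or 2 (edgeR adjusted p = 0.238 and 0.171), without KO replicate 1 or 2 (0.0854 and 0.0851) and with limma-voom (limma adjusted p = 0.0614). In the KO-labelled libraries the call was lost without control replicate 1 or 2 (edgeR adjusted p = 0.0623 and 0.0618), without KO replicate 1 or 2 (0.153 and 0.226) and without treated KO replicate 2, where the change was 0.84 (edgeR adjusted p = 0.182). Within the *Hmga2* gene lie *Mir763*, in an intron, with 12 and 11, 31 and 4, 6 and 13, and 18 and 30 counts in control, treated control, KO and treated KO libraries, and the antisense *1700006J14Rik*, which shares 140 bp of exons and had at most 7 counts. Whether the counting used the strand is not given in the sources used here.

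**Figure D3:**
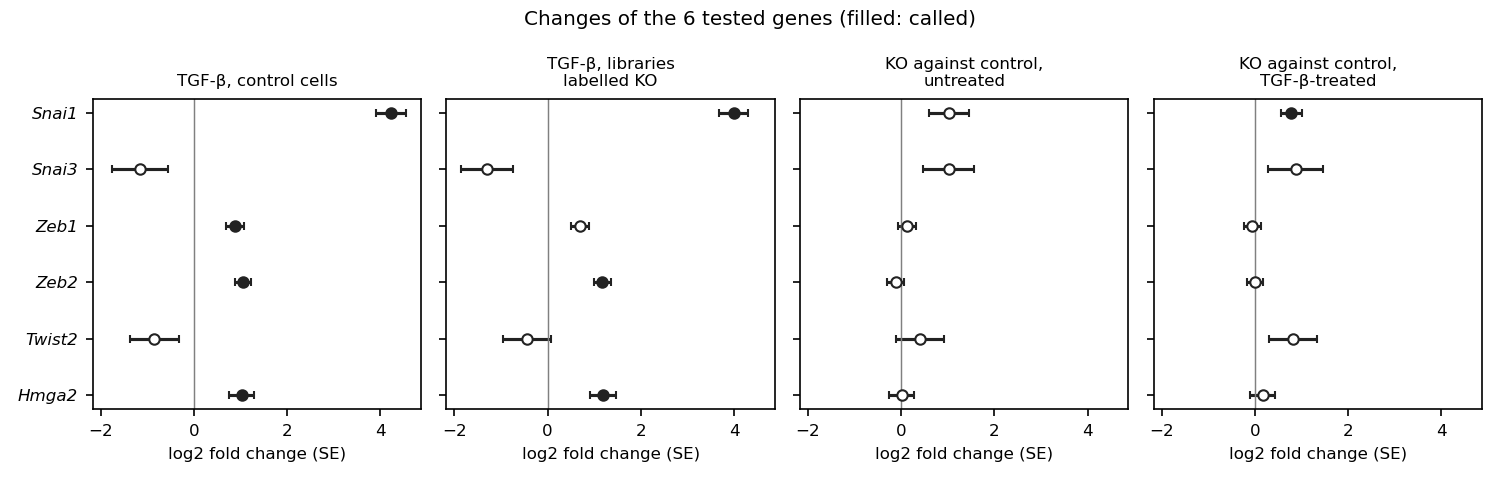
Points give the log2 fold change and bars its SE (x axis) for the 6 tested genes in both TGF-β responses and both genotype comparisons, with filled points for called changes. *Snai1* lies at 4.23 and 3.99 in the TGF-β panels, *Zeb1*, *Zeb2* and *Hmga2* at 0.70 to 1.19, and in the genotype panels *Snai1* in treated cells is the only filled point.

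Whether the KO-labelled libraries differed from control cells was tested before and after treatment. Untreated, 0 of the 6 tested members were called by edgeR, where 1.83% of all tested genes were. An unadjusted p under 0.05 was found for 0 of the 6, the smallest being that of *Snai1* (edgeR unadjusted p = 0.0509). The 95% interval of *Snai1* from the SE, 0.08 to 1.97, nonetheless left out 0. Its unadjusted p ranked 1962 among the 13028 tested genes, so 0 of 6 is not read as a result about the members. Without the filter on low counts *Snai3* had an unadjusted p of 0.0231 (edgeR adjusted p = 0.261). DESeq2 and limma-voom called 0 as well. *Snai1* was higher in both untreated KO-labelled libraries, at 1.54 and 1.46 CPM against 0.724 and 0.732 CPM, and so was *Snai3*, at 7.72 and 7.97 CPM against 5.07 and 2.69 CPM. *Zeb1* was also higher without overlap, at 43.0 and 38.3 CPM against 36.2 and 38.2 CPM, and *Zeb2* was lower, at 25.1 and 24.7 CPM against 27.4 and 26.9 CPM. Groups without overlap were seen for 26.8% of all tested genes in the higher and 25.2% in the lower direction. The log2 differences were 1.02 for *Snai1* (SE 0.42, edgeR adjusted p = 0.337) and 1.02 for *Snai3* (SE 0.55, edgeR adjusted p = 0.440), with 6 to 11 counts per library behind the first. *Zeb1* differed by 0.12 (SE 0.20), *Zeb2* by -0.12 (SE 0.18), *Twist2* by 0.41 (SE 0.52) and *Hmga2* by 0.01 (SE 0.27).

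After TGF-β, *Snai1* was higher in the KO-labelled libraries, at 26.1 and 21.9 CPM against 15.3 and 12.5 CPM in control cells, a log2 difference of 0.79 (SE 0.23, edgeR adjusted p = 0.0479). It was the only member called, where 15.0% of all tested genes were, 8.47% higher and 6.57% lower. The call did not hold with DESeq2 (DESeq2 adjusted p = 0.0914), in counts thinned to the smallest total (edgeR adjusted p = 0.140) or in the 4 treated libraries alone (0.117). It was lost without control replicate 1 or 2 (0.0789 and 0.0788), treated control replicate 2 (0.155), KO replicate 1 or 2 (0.0717 and 0.0709) or treated KO replicate 1 or 2 (0.226 and 0.142), while the difference stayed within 0.66 to 0.94. *Snai3*, without overlap at 3.02 and 3.34 CPM against 0.656 and 2.86 CPM, differed by 0.87 (SE 0.59, edgeR adjusted p = 0.342), and such groups were seen for 28.4% of all tested genes. *Snai3* was called at 2.27 (edgeR adjusted p = 0.0474) without treated control replicate 2, and *Twist2*, at 0.82 (SE 0.52) with all libraries, at 2.17 (edgeR adjusted p = 0.0115) without treated control replicate 1. These calls rest on 1 treated control library, and with the other one in its place the differences were 0.15 (edgeR adjusted p = 0.842) for *Snai3* and 0.16 (edgeR adjusted p = 0.813) for *Twist2*. *Zeb1* at -0.05 (SE 0.19), *Zeb2* at 0.01 (SE 0.17) and *Hmga2* at 0.17 (SE 0.27) had overlapping libraries, and their signs changed with single libraries left out.

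The test of the difference between both TGF-β responses, in which a negative value is a smaller response in the KO-labelled libraries, called 0 of the 6 members and 0.00% of all tested genes with edgeR. Among all genes 1134 had an unadjusted p under 0.05, and DESeq2 called 30 and limma-voom 0, none of them a member. The smallest unadjusted p of a member was 0.530 (edgeR), for *Zeb1*. The difference was -0.24 for *Snai1* (95% interval -1.27 to 0.80), -0.18 for *Zeb1* (-0.78 to 0.43), 0.13 for *Zeb2* (-0.42 to 0.68) and 0.16 for *Hmga2* (-0.69 to 1.01), all on the log2 scale. For *Snai3* it was -0.14 (-2.00 to 1.71) and for *Twist2* 0.41 (-1.23 to 2.05). All 6 intervals include 0, and each reaches at least 0.68 in size on 1 side.

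**Figure D4:**
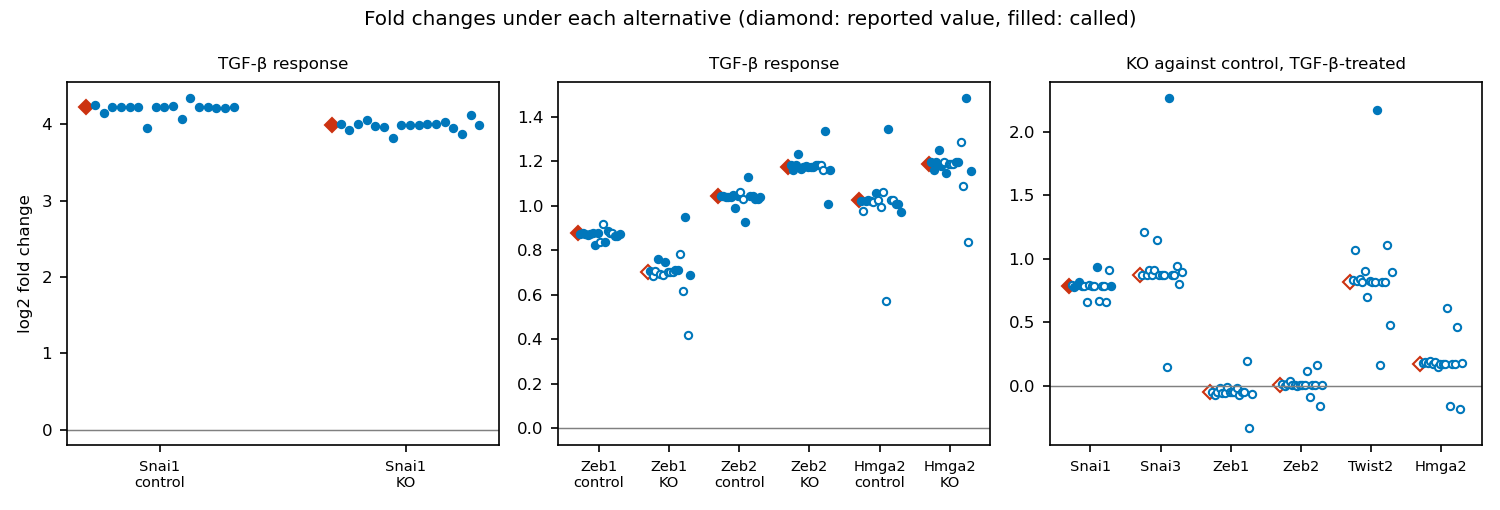
The log2 fold change (y axis) is plotted for the reported fit (diamond) and each alternative or left-out library (circles), filled where called, for *Snai1* (left) and *Zeb1*, *Zeb2* and *Hmga2* (middle) in the TGF-β responses and for all 6 tested genes between treated genotypes (right). *Snai1* is filled throughout in the left panel at 3.82 to 4.34, and *Hmga2* in control cells reaches down to 0.57.

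Genes whose products act with or on these factors were read from lists of known members. Of 20 corepressors and partners, all tested, control cells had 2 called higher and 1 called lower, and the KO-labelled libraries 1 of each, with medians of 0.05 and 0.03 on the log2 scale beside 0.02 and 0 for all tested genes. Of all tested genes, 4.69% were called higher and 4.47% lower in control cells, and 4.25% higher and 2.57% lower in the KO-labelled libraries, so that 3 and 2 called genes of 20 are not read as a result about this list. *Ctbp2*, a corepressor that Zeb proteins recruit, rose by 0.90 (SE 0.16, edgeR adjusted p = 0.0118) in control cells and by 1.10 (SE 0.17, edgeR adjusted p = 0.00545) in the KO-labelled libraries. *Kdm1a*, the histone demethylase LSD1, rose by 0.66 (SE 0.17) and *Smarca4*, the BRG1 remodeller, fell by 0.53 (SE 0.13) in control cells. In the KO-labelled libraries, where neither was called, *Kdm1a* was at 0.62 (edgeR adjusted p = 0.0583) and *Smarca4* at 0.05 (edgeR adjusted p = 0.871). *Wtip*, an Ajuba family LIM protein, was called lower in the KO-labelled libraries, from 26 counts summed over the untreated to 2 over the treated libraries. In control cells *Wtip* was at -0.02 (SE 0.59). Between treated genotypes 1 of the 20 was called higher in the KO-labelled libraries and 2 lower, beside 8.47 and 6.57% of all tested genes.

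Of 16 genes of Snail protein turnover, 15 were tested, with 2 called higher in control cells and 3 in the KO-labelled libraries, 0 lower, and medians of 0.28 and 0.25, beside 4.69 and 4.25% of all tested genes called higher and all-gene medians of 0.02 and 0. So few called genes are not read as a result about the list. The F-box gene *Fbxw7* rose by 1.08 (SE 0.16) and 0.93 (SE 0.17) and the kinase gene *Csnk1e* by 1.00 (SE 0.22) and 0.89 (SE 0.22) in control cells and in the KO-labelled libraries. *Fbxw11*, which encodes a β-TrCP protein, rose by 0.59 (SE 0.14) in the latter. In control cells it was at 0.50 (SE 0.14, edgeR adjusted p = 0.0508) and not called. The list holds genes for kinases, ubiquitin ligases and stabilisers of the protein, which act on it in opposite directions. Between treated genotypes 0 of the 15 were called.

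Among 20 other transcription factors associated with EMT, 13 were tested and 4 were called higher and 0 lower in each genotype, with medians of 0.03 and 0.12, where 4.69 and 4.25% of all tested genes were called higher. These were *Foxq1*, at 1.95 (SE 0.23) in control cells and 1.32 (SE 0.24) in the KO-labelled libraries, *Sox4*, at 1.51 (SE 0.21) and 1.49 (SE 0.21), *Ets1*, at 1.46 (SE 0.17) and 1.56 (SE 0.17), and *Zfp281*, at 0.70 (SE 0.16) and 0.71 (SE 0.16). *Foxq1* encodes a forkhead factor, *Sox4* an HMG box factor, *Ets1* an ETS factor and *Zfp281* a zinc finger factor. Between treated genotypes 0 of the 13 were called higher in the KO-labelled libraries and 2 lower, with a median of -0.06. Of all tested genes 8.47% were called higher and 6.57% lower there. Between untreated genotypes 0 were called higher and 1 lower, beside 1.03 and 0.798% of all tested genes. Of the immediate TGF-β response genes, 8 of 9 tested were called higher in each genotype, among them *Ctgf* at 3.03 (SE 0.29) and 3.77 (SE 0.30), *Skil* at 2.09 (SE 0.18) and 2.34 (SE 0.19) and *Bhlhe40* at 1.60 (SE 0.20) and 2.62 (SE 0.21).

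The list of epithelial genes repressed by Snail, Zeb or Twist factors holds junction, polarity and keratin genes as well as splicing factors, epithelial transcription factors, a mucin and a protease. Of 22, 13 were tested, with 3 called in each direction in control cells, 1 called lower among KO-labelled libraries, and medians of -0.10 and 0.25. All tested genes gave 4.69% higher and 4.47% lower in control cells and 2.57% lower in the KO-labelled libraries, and 1 gene of 13 in the latter is not read as a result about the list. *Tjp3*, the ZO-3 gene, fell by 2.22 (SE 0.49) in control cells and by 1.61 (SE 0.40) in the KO-labelled libraries, and *Llgl2*, a polarity gene, by 1.36 (SE 0.24) in control cells. *Krt18*, a keratin gene, rose by 0.96 (SE 0.22) and *Pkp2*, a desmosomal gene, by 0.57 (SE 0.14) in control cells. The remaining called genes, named after their values were seen, were the polarity gene *Crb3*, lower by 2.04 (SE 0.51), and the keratin gene *Krt8*, higher by 0.65 (SE 0.17). None of these except *Tjp3* was called in the KO-labelled libraries. There *Llgl2* was at -0.65 (edgeR adjusted p = 0.140) and *Crb3* at -1.91 (edgeR adjusted p = 0.0525). *Krt18* was at 0.48 (edgeR adjusted p = 0.229), *Pkp2* at 0.47 (edgeR adjusted p = 0.0807) and *Krt8* at 0.58 (edgeR adjusted p = 0.0792). *Cdh1* itself differed by 0.06 (SE 0.17, edgeR adjusted p = 0.853) in control cells and by 0.52 (SE 0.17, edgeR adjusted p = 0.117) in the KO-labelled libraries. Between treated genotypes 5 of the 13 were called higher in the KO-labelled libraries and 0 lower, with a median of 0.30, where 8.47% of all tested genes were called higher and their median was -0.01. These were *Cdh1* at 0.61 (SE 0.17, edgeR adjusted p = 0.0433), the desmoplakin gene *Dsp* at 1.12 (SE 0.17), the polarity gene *Patj* at 1.16 (SE 0.21), *Tjp3* at 1.82 (SE 0.48) and the splicing factor gene *Esrp2* at 0.69 (SE 0.20), given here after their values were seen. Between untreated genotypes 0 of the 13 were called by edgeR, where 1.83% of all tested genes were. Of the 13, 3 had an unadjusted p under 0.05, *Dsp* at 0.62 (edgeR adjusted p = 0.113), *Patj* at 0.88 (edgeR adjusted p = 0.0833) and *Tjp3* at 1.21 (edgeR adjusted p = 0.195). In that comparison the edgeR unadjusted p of *Snai1*, 0.0509, ranked 1962 among the 13028 tested genes. These 3 of 13 are therefore not read as a result about the list. The other tools were not read for this list.

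Of 14 mesenchymal genes 7 were tested, with 1 called higher and 0 lower in each genotype and medians of 0.33 and 0.36. Over all tested genes 4.69% were called higher in control cells and 4.25% in the KO-labelled libraries, and 1 gene of 7 is not read as a result about the list. The fibronectin gene *Fn1* rose by 1.16 (SE 0.28) in control cells, and the integrin gene *Itga5* by 1.90 (SE 0.38) in the KO-labelled libraries. In the other genotype neither was called. There *Fn1* was at 0.73 (SE 0.28, edgeR adjusted p = 0.153) and *Itga5* at 1.28 (SE 0.38, edgeR adjusted p = 0.0653). Between treated genotypes the median of the 7 was 0.42, with 1 called higher in the KO-labelled libraries (*Sparc*, a matricellular protein gene, at 0.54, edgeR adjusted p = 0.0231, named after its value was seen) and 0 lower, and that of the 9 TGF-β response genes was 0.60, with 3 called higher and 0 lower. Both medians were above that of the epithelial list in the same comparison, 0.30. In this comparison 8.47% of all tested genes were called higher and 6.57% lower, with an all-gene median of -0.01. Here too, 1 gene of 7 is not read as a result about the mesenchymal list. Of 15 microRNA genes and let-7 regulators that act on Zeb or Hmga2 transcripts, 14 were in the table, 2 had enough counts to be tested and 0 were called by edgeR. Precursor counts do not measure mature microRNAs.

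**Figure D5:**
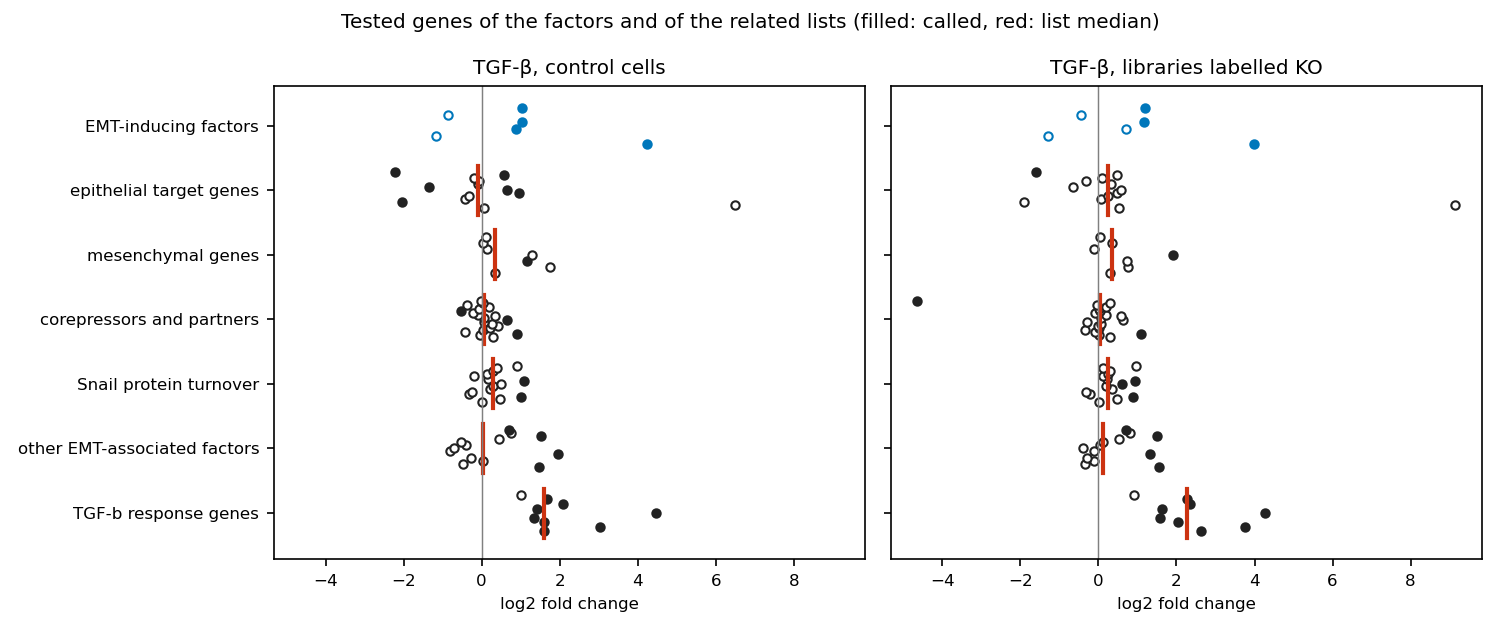
Points give the log2 fold change after TGF-β (x axis) of each tested gene of the EMT-inducing factors (blue) and of 6 related lists (black), filled where called, with the list median as a red line. The outlying open point among the epithelial targets is *Cldn4*, fitted against untreated libraries with at most 1 count, and TGF-β response genes have medians of 1.60 and 2.28.

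The genes whose log2 CPM followed a called member most closely over the 8 libraries were found by Pearson's r, as a description, since the libraries share the treatment. For *Snai1* they were *Lmcd1* (r = 0.998), *Pcolce2* (r = 0.997) and *Dnpep* (r = 0.997), of which *Lmcd1* rose by 4.18 (SE 0.21) in control cells and 3.91 (SE 0.20) in the KO-labelled libraries. For *Zeb2* they were *Fgd6* (r = 0.998), *Ttc39b* (r = 0.994) and *Cttnbp2nl* (r = 0.994), and for *Zeb1* *Tpd52l2* (r = 0.980), *Ell2* (r = 0.978) and *Denr* (r = 0.977). For *Hmga2* they were *Tmem2* (r = 0.992), *Kctd11* (r = 0.991) and *Cldn4* (r = 0.988). *Tmem2*, which encodes a transmembrane hyaluronidase, shared the unequal treated replicates of *Hmga2*, with 3909 and 2134 counts in treated control cells and 3179 and 5570 in treated KO-labelled libraries. *Cldn4*, a tight junction claudin, had 126 and 13, and 30 and 162 counts there and at most 1 count in any untreated library.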

How the data were processed

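The 8 NMuMG libraries, 2 per condition, came as 1 table of raw read counts per gene that the authors deposited without normalization. Their methods give alignment with subjunc and removal of duplicates, while the submitters' processing notes name HISAT2, limma and mm10. The methods and the labels differ on kit, sequencer and read layout, and the counting tool and strand setting are not given in the sources used here. The genes and their order match GENCODE vM1 (NCBIM37). From the counts, CPM with TMM factors were computed, and genes passing filterByExpr (13028) were tested in 1 model of the 4 groups with glmQLFit and glmQLFTest of edgeR 4.0.16 in R 4.3.3, with Benjamini-Hochberg adjustment. The SE is the absolute log2 fold change divided by the square root of F. The common biological coefficient of variation came to 0.180 (4 residual and 5.50 prior degrees of freedom). In simulated counts of the TGF-β response in control cells with 200 of 13028 genes changed, 82 of 100 changes of 2 and 41 of 100 changes of 1 on the log2 scale were recovered, with 10 false calls.

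Alternatives were DESeq2 1.42.0, voom of limma 3.58.1, RLE factors, no filter, a mean of at least 10 counts, a replicate block, thinned counts, only the libraries compared, no fold threshold and each library left out. The members and lists were chosen with earlier results of these data known. Named genes are the members, the targeted gene, overlapping genes, up to 4 called genes per list by smallest p, and the 3 genes correlated best with each called member. The values of 1 gene that this rule names are not reported here.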

Additional observations from a re-analysis of the deposited data

How the results depend on the processing

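The direction of the TGF-β response held for all tested members in both genotypes under every alternative, and *Snai1* was called throughout. In control cells 4 members were called, and 1 to 5 with a library left out. In the KO-labelled libraries 3 were called, 5 without the filter on low counts (with *Snai3* and *Zeb1* added), and 1 to 4 with a library left out. Between treated genotypes 1 was called (*Snai1*), 0 with DESeq2, in thinned counts and in the 4 treated libraries alone, and 0 to 2 with a library left out. For untreated genotypes and for the difference between responses, 0 members were called by edgeR, DESeq2 and limma-voom and under all other alternatives. The causes were not tested, and fits with fewer libraries gave both lower and higher counts of called genes. Without the filter, p-values ran lower at a like change and SE, as given for *Zeb1* in the passage on *Snai3*. Over all member values, 434 kept their direction and their side of the threshold, 33 lost a call, 12 gained one and 25 changed sign.

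Changes of sign were confined to *Hmga2* between untreated genotypes and to comparisons of treated genotypes or of responses. *Hmga2* was at -0.027 without the filter, -0.0033 in the 4 untreated libraries alone, and -0.091 to 0.11 with a library left out. Between treated genotypes *Zeb2* was at -0.0014 with limma-voom and -0.0058 in thinned counts, and with a library left out *Zeb1* ranged from -0.34 to 0.20, *Zeb2* from -0.16 to 0.16 and *Hmga2* from -0.18 to 0.61. In the difference between responses *Snai3* was at 0.13 with limma-voom and 0.19 in thinned counts. With a library left out that difference ranged from -0.85 to 1.27 for *Snai3*, -0.44 to 0.089 for *Zeb1*, -0.022 to 0.30 for *Zeb2*, -0.23 to 1.78 for *Twist2* and -0.17 to 0.62 for *Hmga2*.

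Over all genes, 1194 were called in control cells, 2021 without the filter, 483 in the 4 libraries alone and 139 to 1479 with a library left out. In the KO-labelled libraries 889 were called, 1832 without the filter and 136 to 1381 with a library left out. Between untreated genotypes 238 were called, 428 with DESeq2, 137 with limma-voom, 756 without the filter, 797 in the 4 libraries alone and 41 to 393 with a library left out. Between treated genotypes 1959 were called, 402 in the 4 libraries alone and 486 to 2788 with a library left out. The difference between responses gave 0 with edgeR, 30 with DESeq2, 211 without the filter and 0 to 6 with a library left out.

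The labels give each group the numbers 1 and 2 without saying what they share. Deviations of same-numbered libraries from their group means correlated at 0.30 between control groups and at -0.01 between KO-labelled groups, so the numbers were not taken as a pairing. With the replicate number as a block, 3 members were called in control cells (*Hmga2* lost), 2 in the KO-labelled libraries (*Hmga2* lost), 0 between treated genotypes, 0 untreated and 0 for the difference, and 150 genes in all between untreated genotypes. Treated groups correlated at -0.47, and a block with the numbers of the treated KO-labelled libraries exchanged, chosen after seeing the data, gave 4, 4, 0, 1 and 0 members and 1954, 1550, 540, 2809 and 5 genes in all for the TGF-β response in control cells, that in KO-labelled libraries, untreated genotypes, treated genotypes and the difference, and *Hmga2* at -0.0050 untreated. *Snai2* and *Twist1* had at most 19 and 2 counts in a library, and 6 to 11 counts lie behind each untreated *Snai1* value.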
